A study of Mus musculus with 2 samples.

Results

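The genes described here are 8 members of the angiopoietin, Tie and apelin signalling systems, chosen by name from the 32285 genes counted in both libraries: Angpt1, Angpt2, Tek, Tie1, Angptl4, Apln, Aplnr and Esm1. They were followed in mouse kidney cells collected 14 days after ischaemia-reperfusion injury of 1 kidney, made by clamping its artery. The control mice were Cre-, and the haplodeficient mice were Cdh5-CreERT2; Phd3f/+. The latter carry 1 conditional (floxed) allele of Phd3, the oxygen-sensing prolyl hydroxylase gene now called Egln3, and a tamoxifen-activated Cre recombinase driven by the promoter of the endothelial cadherin gene Cdh5. Mice of both groups had the same injury and 4 tamoxifen injections, and both libraries carry batch label 1. Each group is 1 library of dissociated kidney cells, so no test between the groups was possible, and every interval given here covers counting error alone. Neither the number of animals per library nor whether control mice carried the floxed allele is given in the sources used here.

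Angiopoietin 1, the product of Angpt1, is a ligand that activates the receptor tyrosine kinase Tie2, which Tek encodes, and keeps vessels quiescent. Angiopoietin 2 is stored and released by activated endothelium and usually acts against angiopoietin 1 at Tie2, while Tie1 is a related receptor that modulates Tie2. Apelin, from Apln, is a peptide made by growing endothelium that acts on the G-protein-coupled receptor encoded by Aplnr. Esm1 encodes endocan, a secreted proteoglycan and a marker of sprouting endothelial tip cells. Angptl4 encodes an angiopoietin-like protein that does not bind Tie2 and instead inhibits lipoprotein lipase; it is a hypoxia- and fasting-responsive gene.

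After filtering, 8737 control cells with a median of 8762 UMIs (unique molecular identifiers, each standing for 1 captured RNA molecule) and 9222 haplodeficient cells with a median of 5471.5 UMIs were analysed. The libraries shared 23 cell barcodes. Cells were grouped into clusters without using the 8 genes, and a cluster was called "like" a cell type only from fixed markers that include none of them. The endothelial-like class held 362 control and 793 haplodeficient cells, with median depths of 3996.5 and 3901 UMIs. All of its 10 markers were detected in both libraries, for example Cdh5 at 698.4 and 714.3 CPM and Pecam1 at 855.8 and 838.7 CPM, control first, against 1.52 and 1.39 CPM of Cdh5 in macrophage-like cells. Other markers differed more between the libraries and in both directions, with Cldn5 at 1115 and 603.0 CPM, Plvap at 473.0 and 777.0 CPM and Emcn at 1364 and 1798 CPM. CPM is a gene's UMIs summed over the cells of a class and scaled to a fixed total of UMIs, the same for every class and library. Egln3, the targeted gene, stood at 24.2 CPM (95% interval 18.4 to 31.3; 58 UMIs) in control and 20.8 CPM (17.1 to 25.1; 110 UMIs) in haplodeficient endothelial-like cells. The place of the deleted part is not given in the sources used here, and reads from the 3′ end can lie outside it, so this level does not check the label. In all, 11.0% of control and 13.9% of haplodeficient cells lay in clusters that stayed unnamed.

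In the GENCODE annotation of GRCm38, the assembly also called mm10, all 8 are protein-coding genes. Tek (chr4:94739289-94874976, plus strand) and Tie1 (chr4:118471191-118490061, minus strand) lie on one chromosome and overlap no other annotated gene. Angptl4 (chr17:33773750-33781830, minus), Apln (chrX:48025146-48034853, minus) and Aplnr (chr2:85136225-85139923, plus) overlap none either. Angpt1 (chr15:42424723-42676977, minus) overlaps the antisense gene Gm17473, Angpt2 (chr8:18690263-18741562, minus) lies opposite Mcph1, a gene of DNA-damage signalling and chromosome condensation, and Esm1 (chr13:113209659-113218098, plus) lies opposite Gzmk, the granzyme K gene of cytotoxic lymphocytes. Whether counting used strand is not given in the sources used here, so reads of these 3 pairs might be shared. Levels are compared within a gene, between cell types and libraries, and not between genes.

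RefSeq promoter sequences (GRCm38.p6, 250 bases before to 50 after the start) matched 4 of the 8 genes. No sequence was matched for the other 4, which include Aplnr, so the 4 shown were set by availability. ETS factors are known regulators of endothelial genes, so capitals mark the ETS core GGAA or its complement TTCC. Each sequence is written 5′ to 3′ on the gene's strand.
Tie1: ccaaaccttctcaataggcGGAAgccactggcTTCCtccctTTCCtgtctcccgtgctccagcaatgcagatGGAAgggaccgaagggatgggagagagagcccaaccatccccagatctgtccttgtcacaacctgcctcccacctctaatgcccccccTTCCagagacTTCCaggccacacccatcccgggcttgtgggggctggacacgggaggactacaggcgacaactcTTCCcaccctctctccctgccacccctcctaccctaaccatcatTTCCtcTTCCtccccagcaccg
Tek: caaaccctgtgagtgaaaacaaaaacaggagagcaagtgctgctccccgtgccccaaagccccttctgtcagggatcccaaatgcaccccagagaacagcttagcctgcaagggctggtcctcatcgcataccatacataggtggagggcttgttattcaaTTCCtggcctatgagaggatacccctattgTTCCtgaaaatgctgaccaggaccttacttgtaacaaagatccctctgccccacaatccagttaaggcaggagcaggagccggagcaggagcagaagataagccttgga
Esm1: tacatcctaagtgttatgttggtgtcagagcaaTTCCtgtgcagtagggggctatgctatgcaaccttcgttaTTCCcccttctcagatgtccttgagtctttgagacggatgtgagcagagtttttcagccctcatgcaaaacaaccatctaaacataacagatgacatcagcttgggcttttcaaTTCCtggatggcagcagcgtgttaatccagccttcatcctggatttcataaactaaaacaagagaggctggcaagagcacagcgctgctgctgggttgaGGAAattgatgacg
Apln: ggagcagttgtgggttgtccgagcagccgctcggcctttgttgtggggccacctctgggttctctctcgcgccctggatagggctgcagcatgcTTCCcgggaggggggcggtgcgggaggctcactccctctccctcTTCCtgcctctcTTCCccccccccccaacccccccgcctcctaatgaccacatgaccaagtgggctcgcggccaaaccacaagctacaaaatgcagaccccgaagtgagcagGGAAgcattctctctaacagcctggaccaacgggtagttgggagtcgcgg
The windows are chr4:118489800-118490099 (minus), chr4:94739039-94739338 (plus), chr13:113209409-113209708 (plus) and chrX:48034804-48035103 (minus). The Tie1 window holds 9 ETS cores, and 1.59% of 32851 RefSeq promoters of this length hold as many. The Esm1 and Apln windows hold 4 each, as many or more than which 46.3% of promoters hold, and the Tek window holds 2, a number reached by 84.6%. The hypoxia response core, searched as ACGTG or GCGTG on both strands, is found in 43.8% of promoters. It matched once in the Esm1 window, as GCGTG beginning 47 bases before the start, and in none of the other 3 windows. A match is a description of letters and not evidence of binding.

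Most UMIs of Tek, Tie1, Aplnr and Esm1 came from endothelial-like cells in both libraries. The endothelial-like share was 79.7% of 1204 Tek UMIs in control and 83.8% of 2333 in haplodeficient cells, and 78.7% of 770 and 81.1% of 1563 Tie1 UMIs. For Aplnr it was 93.3% of 75 and 90.8% of 249 UMIs, and for Esm1 71.1% of 464 and 76.2% of 622. The ligand genes were distributed differently. Proximal-tubule-like cells held 60.6% of the 3763 control Angpt1 UMIs and 21.4% of the 1437 haplodeficient ones, and 72.0% and 42.1% of the 4746 and 1135 Angptl4 UMIs. These cells also made up 36.5% of control and 4.91% of haplodeficient cells. Descending-thin-limb-like cells held 49.4% of 474 control and 23.1% of 520 haplodeficient Angpt2 UMIs. Apln was the exception among the vascular genes, since proximal-tubule-like cells held 54.2% of its 118 control UMIs and 2.60% of its 192 haplodeficient ones, at levels of 1.60 and 0.956 CPM in those cells.

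**Figure D1:**
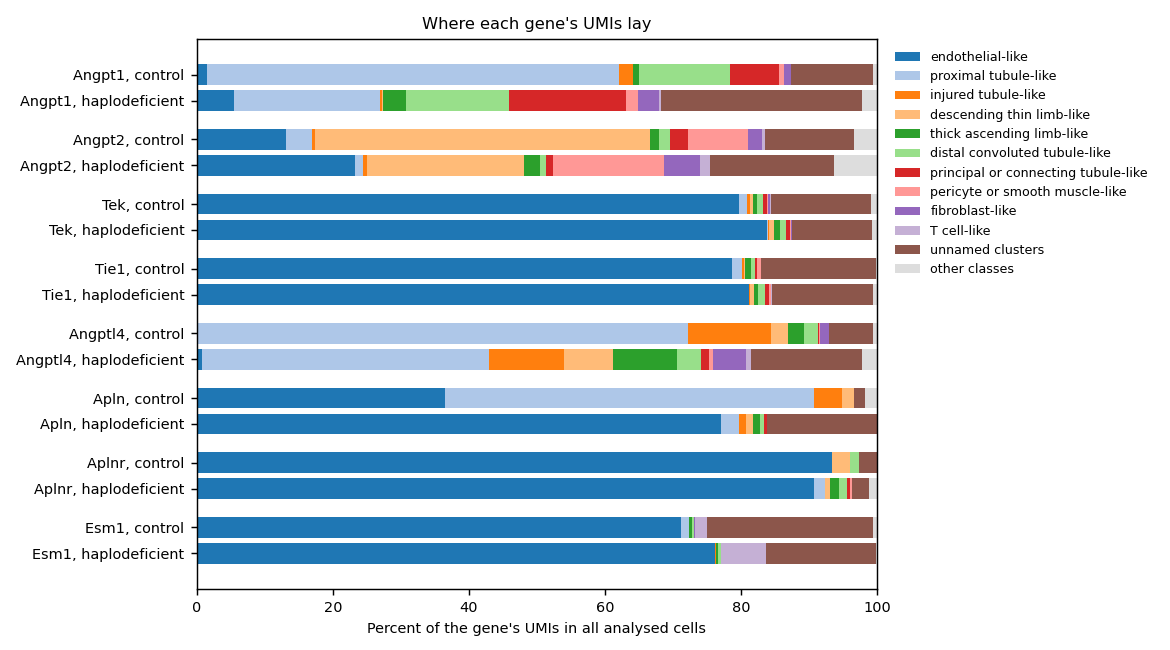
Share of each gene's UMIs (horizontal axis, percent of the gene's UMIs in all analysed cells) by cell class, 1 bar per gene and library. Endothelial-like cells (dark blue) hold at least 71.1% of Tek, Tie1, Aplnr and Esm1 UMIs in each library and at most 23.3% of Angpt1, Angpt2 and Angptl4 UMIs.

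In endothelial-like cells no member passed the size rule, which asked for a CPM ratio (haplodeficient over control) of at least 2 or at most 0.5 with a 95% interval that excludes 1. Of 8 members, 7 had enough UMIs for the rule (30 over both libraries and a mean of 10 CPM), and 0 passed, while 1.96% of all 9144 eligible genes did. The exception was Angptl4, with 11 control and 9 haplodeficient UMIs, of which free RNA in the suspension would account for an estimated 7.84 and 3.25.

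Summed over the class, the receptors Tek and Tie1 were detected in endothelial-like cells of both libraries at close levels. Tek stood at 400.8 CPM (375.8 to 427.0) in control and 370.1 CPM (353.9 to 386.9) in haplodeficient cells, a ratio of 0.924 (0.854 to 0.999). Tie1 stood at 253.0 CPM (233.2 to 274.0) and 240.1 CPM (227.0 to 253.7), a ratio of 0.949 (0.861 to 1.05). With each cell thinned to 1000 UMIs, 35.7% of 336 control and 30.8% of 759 haplodeficient cells held a Tek UMI, and 23.5% and 24.6% a Tie1 UMI; unthinned, the shares were 71.0% and 70.6% for Tek and 60.5% and 65.2% for Tie1. Thinning left out 26 control and 34 haplodeficient cells that were shallower. The thinned Tek share was 0.137% of 731 control and 0.25% of 1202 haplodeficient macrophage-like cells (median depths 4747 and 5328.5 UMIs), and 0 of 3009 control proximal-tubule-like cells, which allows a share of up to 0.0997%. Free RNA would account for an estimated 0.897 of the 960 control and 4.09 of the 1955 haplodeficient Tek UMIs in endothelial-like cells.

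Within the endothelium both receptors varied by subcluster, and Tek more than Tie1. In peritubular-capillary-like cells (74 control, 254 haplodeficient), Tek stood at 901.4 CPM in control and 607.2 CPM in haplodeficient cells, a ratio of 0.674 (0.582 to 0.782). In venous-or-activated-like cells (33 and 56) it stood at 787.4 and 706.6 CPM, in arterial-like cells (57 and 75) at 356.7 and 257.5 CPM, and in descending-vasa-recta-like cells (92 and 156) at 251.0 and 206.8 CPM. The capillary-like and venous-like levels lay above those of the other 3 subclusters with at least 30 cells in each library, with intervals that did not overlap. In all these subclusters the Tek ratio was below 1. The capillary-like and arterial-like intervals excluded 1, the latter at 0.722 (0.575 to 0.905), and the rest did not. Capillary-like cells were 74 of 362 control but 254 of 793 haplodeficient endothelial-like cells. With equal subcluster weights the whole-class Tek ratio was further below 1, as given below. Tie1 ranged from 235.2 CPM (arterial-like) to 352.2 CPM (venous-or-activated-like) in control and from 208.4 CPM (an unnamed subcluster led by Calca, 64 and 147 cells) to 341.7 CPM (capillary-like) in haplodeficient cells. Its capillary-like ratio was 1.02 (0.809 to 1.29), and the Tek and Tie1 intervals there did not overlap. Most cells with a Tie1 UMI also held a Tek UMI, 181 of 219 in control and 415 of 517 in haplodeficient endothelial-like cells.

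**Figure D2:**
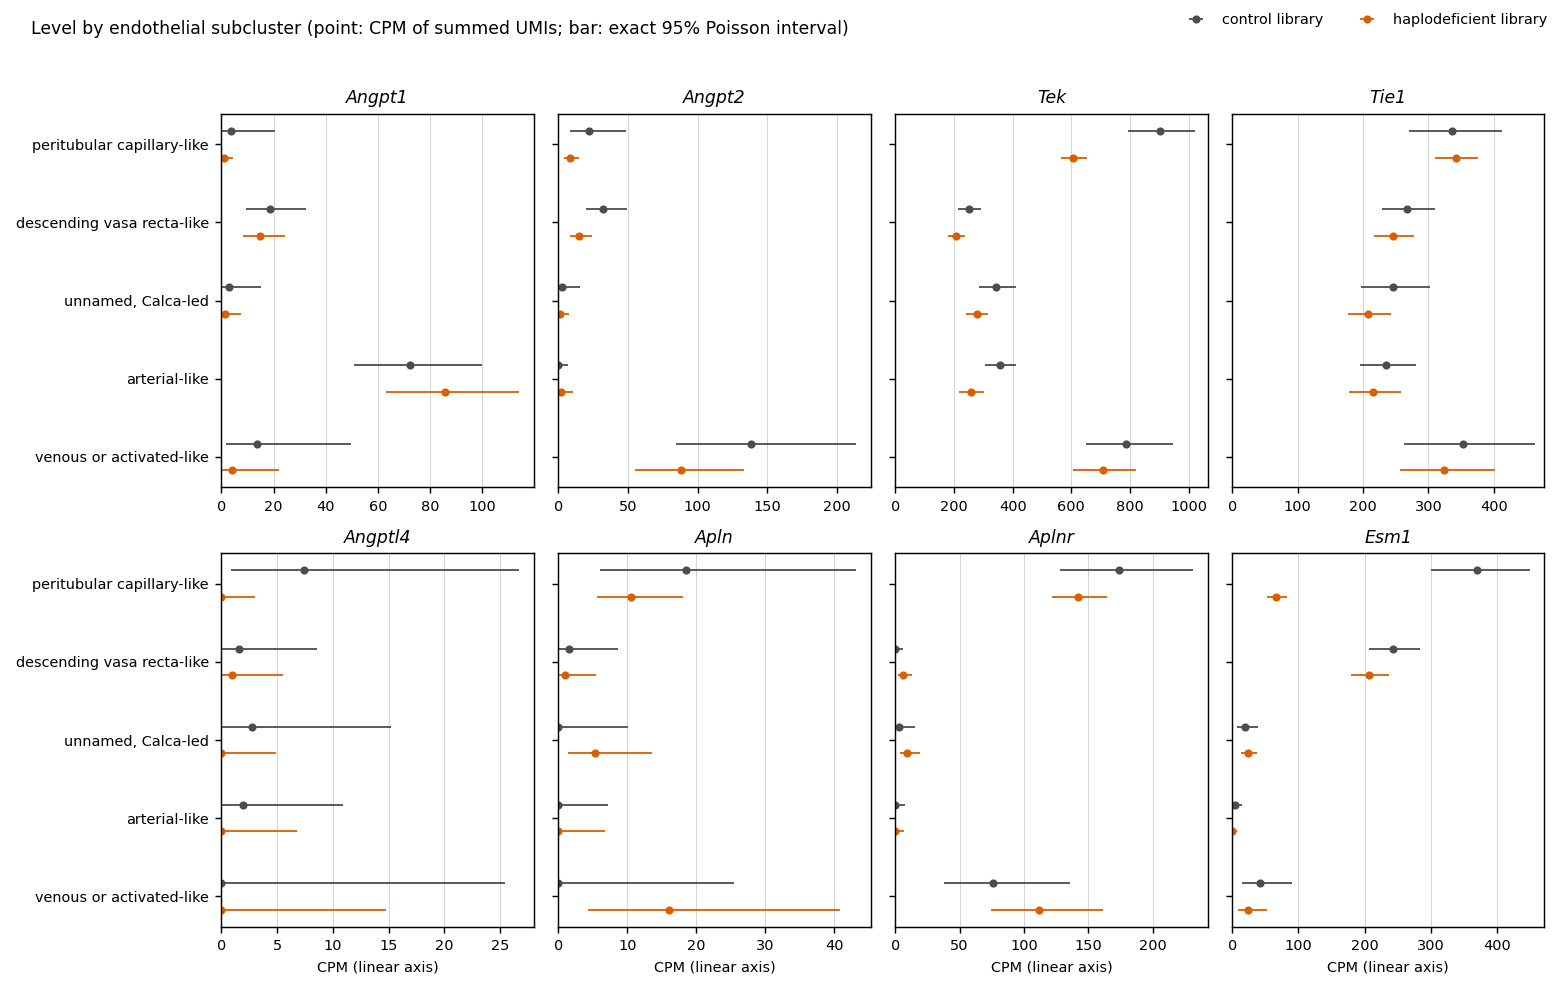
Level of each gene (horizontal axis, CPM of summed UMIs, linear and separately scaled) in the 5 endothelial subclusters with at least 30 cells in each library; points are libraries and bars are exact 95% Poisson intervals. Angpt1 peaks in arterial-like, Angpt2 in venous-or-activated-like and Aplnr in capillary-like cells, and the capillary-like Esm1 points (369.4 and 66.4 CPM) lie far apart.

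Angpt1, the activating ligand, was found in epithelium and stroma as well as in vessels. Proximal-tubule-like cells stood at 57.1 CPM (54.8 to 59.5; 2282 UMIs) in control and 58.9 CPM (52.5 to 65.8; 308 UMIs) in haplodeficient cells. Within them, a cluster led by Slc5a12, a transporter gene of the early segments, stood at 107.1 and 79.0 CPM (1031 and 214 cells), while a cluster led by Gm42397 stood at 14.6 and 10.2 CPM (883 and 62 cells). The Slc5a12-led cluster made up the largest share of the class in each library, and the Spp2-led one (555 and 146 cells; 30.8 and 8.90 CPM) came second among haplodeficient cells. Each of these clusters stood lower in the haplodeficient library, with ratios of 0.737 (0.650 to 0.833), 0.701 (0.299 to 1.41) and 0.289 (0.0763 to 0.777) in the order named. The Spp2-led ratio passed the size rule, as for 21.8% of 5987 eligible genes there. Kap-led cells held 33 UMIs in 651 control and 0 in 23 haplodeficient cells. Over the class the ratio was 1.03 (0.912 to 1.16), and from 0.808 to 1.70 under the alternative settings. Distal-convoluted-tubule-like cells stood at 62.1 CPM (504 UMIs) and 36.4 CPM (219 UMIs), a ratio of 0.587 (0.498 to 0.689). Principal-or-connecting-tubule-like cells stood at 44.4 and 35.5 CPM, a ratio of 0.80 (0.671 to 0.954). Descending-thin-limb-like cells were close to 0, with 4 UMIs in 368 control cells and 1 in 658 haplodeficient cells.

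Among non-epithelial cells, Angpt1 stood at 62.6 CPM (36 UMIs) in control fibroblast-like cells and 47.0 CPM (43 UMIs) in haplodeficient ones. The class that resembled pericytes or smooth muscle (193 and 271 cells) stood at 43.7 CPM (29.3 to 62.8; 29 UMIs) and 21.3 CPM (13.9 to 31.2; 26 UMIs). The ratio of 0.488 (0.276 to 0.858) was just past the size rule, as for 3.8% of 7219 eligible genes there, and under the alternative settings it ran from 0.297 to 0.577. One mural subcluster that carried pericyte markers (36 and 55 cells) held 19 control and 11 haplodeficient UMIs, or 159.4 and 49.3 CPM, a ratio of 0.310 (0.133 to 0.684) where 9.82% of 2200 eligible genes passed the rule. In the pericyte-or-smooth-muscle-like class fibroblast markers summed to 296.8 and 218.8 CPM (4 and 3 of 8 at 0), and proximal tubule markers, a trace of free RNA, to 247.1 and 36.9 CPM (1 and 4 of 10 at 0). Their part in the Angpt1 difference was not tested. In the endothelium Angpt1 lay mainly in arterial-like cells, at 72.5 CPM (51.1 to 99.9) and 85.8 CPM (63.1 to 114.1), while capillary-like cells held 1 UMI in each library. The arterial-like ratio was 1.18 (0.753 to 1.87). Across endothelial-like cells as a whole the ratio was 0.643 (0.450 to 0.925). Arterial-like cells made up 57 of 362 control but 75 of 793 haplodeficient endothelial-like cells. With every endothelial subcluster given the same weight in both libraries the whole-class ratio was closer to 1, as given below.

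Angpt2, the context-dependent antagonist, lay mainly in mural, endothelial and thin-limb cells, with less in fibroblasts. Unnamed clusters held 13.1% of its control and 18.3% of its haplodeficient UMIs. Pericyte-or-smooth-muscle-like cells stood at 63.3 CPM (45.6 to 85.5) in control and 69.7 CPM (55.6 to 86.1) in haplodeficient cells, a ratio of 1.10 (0.752 to 1.63). Fibroblast-like cells stood at 17.4 CPM (10 UMIs) and 30.6 CPM (28 UMIs), a ratio of 1.76 (0.830 to 4.06). Endothelial-like cells stood at 25.9 CPM (19.8 to 33.2) and 22.9 CPM (19.0 to 27.4), a ratio of 0.885 (0.646 to 1.22). Among endothelial subclusters with at least 30 cells in each library, the venous-or-activated-like one had the highest level, at 138.1 CPM (84.4 to 213.3) and 87.8 CPM (55.0 to 133.0). Descending-vasa-recta-like cells held 21 and 15 UMIs, or 32.3 and 14.8 CPM, a ratio of 0.457 (0.219 to 0.929) where 5.42% of 7012 genes passed the rule. Arterial-like cells held 0 control and 1 haplodeficient UMI, against 37 and 47 of Angpt1, while descending-vasa-recta-like cells held both ligand genes, with 12 and 15 Angpt1 UMIs. Glomerular-like endothelium held 2 Angpt2 UMIs in 29 control cells and 32 in 76 haplodeficient cells, too few control cells for a ratio, and 1 and 10 of Angpt1.

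Angpt2 was also found in epithelium. Descending-thin-limb-like cells, the medullary segment that carries urea and water, stood at 38.1 CPM (33.3 to 43.3; 234 UMIs in 64 of 368 cells) in control and 13.5 CPM (11.2 to 16.1; 120 UMIs in 67 of 658 cells) in haplodeficient cells. The ratio of 0.355 (0.282 to 0.444) passed the size rule, which 2.7% of 9343 eligible genes did there. Thinned to 1000 UMIs, 3.84% (2.11 to 6.35) of control and 1.08% (0.434 to 2.21) of haplodeficient cells held an Angpt2 UMI. One control cell held 49 of the 234 UMIs, and without the cell with most UMIs in each library the ratio was 0.396. Mcph1, on the opposite strand, was also lower there, at 24.1 and 15.3 CPM, and 23 of the 64 control and 17 of the 67 haplodeficient Angpt2-positive cells held an Mcph1 UMI. In proximal-tubule-like control cells Mcph1 had 335 UMIs and Angpt2 18, and the part of Mcph1 in the thin-limb difference was not tested. Proximal tubule markers in thin-limb-like cells summed to 200.1 and 28.5 CPM (0 and 1 of 10 at 0), and the median depths were 10186.5 and 8558.5 UMIs; the part of these in the difference was not tested. Other epithelial classes held at most 18 Angpt2 UMIs in a library.

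**Figure D3:**
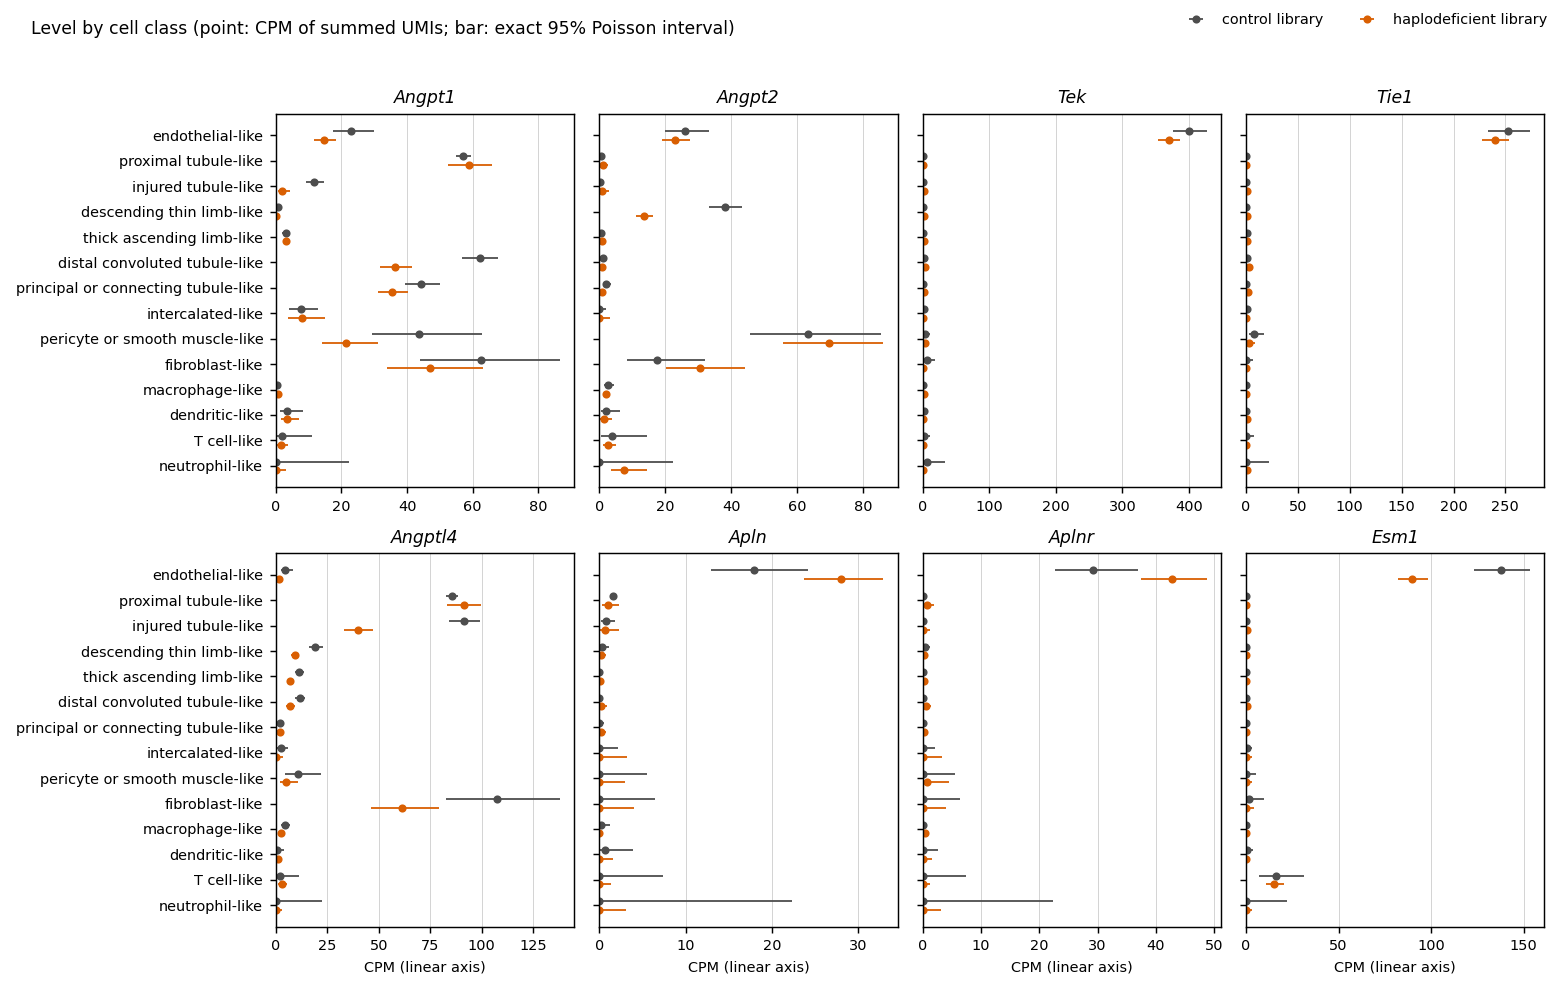
Level of each gene (horizontal axis, CPM of summed UMIs, linear and separately scaled) in the 14 cell classes with at least 100 cells in each library; points are libraries and bars are exact 95% Poisson intervals. Tek, Tie1, Apln, Aplnr and Esm1 stand out in endothelial-like cells, whereas Angpt1 and Angptl4 are spread over tubule and fibroblast-like classes and thin-limb-like Angpt2 is 38.1 CPM in control against 13.5 CPM.

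Of the apelin pair, the receptor gene Aplnr marked capillary-like endothelium, the subcluster for which it was among the 10 leading genes. It stood there at 173.6 CPM (127.6 to 230.9; 47 UMIs) in control and 141.7 CPM (121.5 to 164.3; 175 UMIs) in haplodeficient cells, a ratio of 0.816 (0.588 to 1.15). Venous-or-activated-like cells stood at 76.0 and 111.8 CPM, and arterial-like cells held 0 UMIs in each library. Over all endothelial-like cells Aplnr stood at 29.2 CPM in control and 42.8 CPM in the haplodeficient library, and the ratio of 1.46 (1.12 to 1.94) did not reach 2-fold. Capillary-like cells made up 254 of 793 haplodeficient but 74 of 362 control endothelial-like cells. With every endothelial subcluster given the same weight in both libraries the ratio was 0.910.

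The ligand gene Apln was found in few endothelial cells, 13 of 362 in control and 46 of 793 in the haplodeficient library. Of 148 haplodeficient UMIs, 100 lay in 23 of 76 glomerular-like cells, whereas 29 control glomerular-like cells held 9 UMIs, a number too small for a ratio under the minimum of 30 cells. In control, 28 of 43 UMIs lay in 13 deep cells of an unnamed subcluster led by Magi2, with 24 of them in 1 cell. The overall levels of 18.0 CPM (13.0 to 24.2) and 28.0 CPM (23.7 to 32.9) gave a ratio of 1.56 (1.10 to 2.25). This value rests on those few cells: without that subcluster the ratio was 3.88, and without the cell with most Apln UMIs in each library it was 2.97. In the Ehd3-led cluster of the coarser clustering over all cells (39 and 98 cells), Ehd3 being a glomerular endothelial gene, Apln stood at 82.0 and 87.2 CPM, a ratio of 1.06 (0.732 to 1.58). The 37 control UMIs of that cluster include the 24 of the 1 cell named above, so this ratio rests on it too. Both members of the pair were held by 6 of the 13 Apln-positive cells in control and 10 of 46 in the haplodeficient library. Of all endothelial-like cells, 40 of 362 in control and 120 of 793 in the haplodeficient library held an Aplnr UMI.

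Esm1 had the lowest ratio of any eligible member in the 5 endothelial subclusters with at least 30 cells in each library, and it lay in capillary-like cells. There it stood at 369.4 CPM (300.6 to 449.3; 100 UMIs) in control and 66.4 CPM (52.8 to 82.4; 82 UMIs) in haplodeficient cells. The ratio of 0.180 (0.133 to 0.243) corresponds to a 5.56-fold lower level in the haplodeficient library. The size rule was passed by 4.96% of the 6835 genes eligible in these cells, and 3 of them had a lower ratio than Esm1. The difference lay in the number of positive cells and in the UMIs each held: 29 of 74 control cells had an Esm1 UMI against 44 of 254 haplodeficient cells, and 6 against 1 held 6 or more. After thinning to 1000 UMIs the shares were 32.3% (21.2 to 45.1) of 65 control and 9.39% (6.04 to 13.8) of 245 haplodeficient cells. No macrophage-like cell of either library held an Esm1 UMI after thinning, which allows a share of up to 0.41% of 731 control and 0.25% of 1202 haplodeficient cells.

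**Figure D4:**
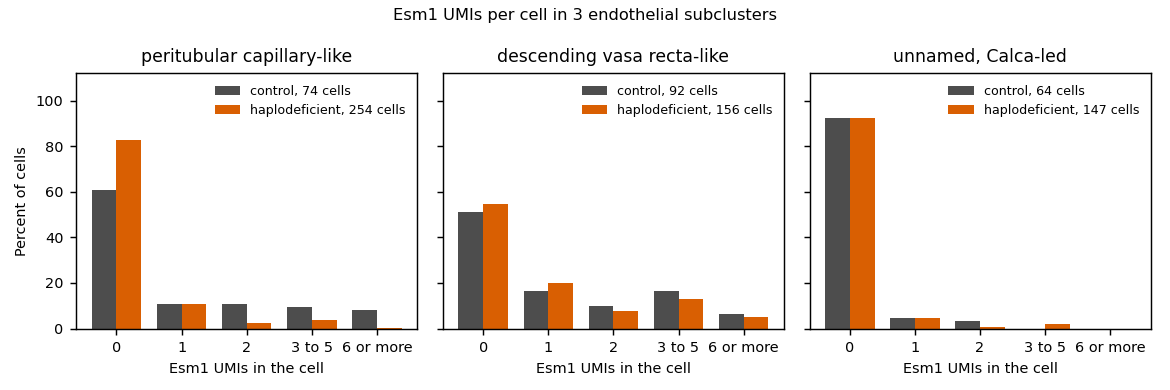
Percent of cells (vertical axis) by the number of Esm1 UMIs they held (horizontal axis), for each library in 3 endothelial subclusters. Capillary-like cells without an Esm1 UMI are 60.8% of control and 82.7% of haplodeficient cells, while the descending-vasa-recta-like bars of the libraries lie close together.

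The other endothelial subclusters with at least 30 cells in each library did not pass the rule for Esm1. Descending-vasa-recta-like cells stood at 243.3 CPM (206.9 to 284.4; 158 UMIs) in control and 206.8 CPM (179.7 to 236.7; 210 UMIs) in haplodeficient cells, a ratio of 0.850 (0.688 to 1.05). Its interval did not overlap that of the capillary-like ratio. The Calca-led subcluster stood at 19.1 and 23.7 CPM, arterial-like cells held 2 and 0 UMIs, and venous-or-activated-like cells held 6 in each library. Of the 2 subclusters with fewer cells, glomerular-like cells held 18 UMIs in 29 control cells and 104 UMIs in 76 haplodeficient cells. Their levels were 74.9 CPM (44.4 to 118.4) and 136.2 CPM (111.3 to 165.0), with intervals that overlapped. This direction, higher in the haplodeficient library, was opposite to capillary-like cells. It did not hold in the Ehd3-led cluster of the coarser clustering (39 and 98 cells), at 126.4 and 104.5 CPM of Esm1. The ratio in that cluster was 0.827 (0.606 to 1.14), so the direction depends on how these cells are grouped. The unnamed Magi2-led cells stood at 182.4 CPM (129.7 to 249.3; 39 UMIs in 13 cells) in control and 75.9 CPM (57.0 to 99.1; 54 UMIs in 29 cells) in the haplodeficient library, lower as in capillary-like cells and with intervals that did not overlap. Over all endothelial-like cells the levels were 137.8 CPM (123.3 to 153.5) and 89.7 CPM (81.8 to 98.2), a ratio of 0.651 (0.565 to 0.752). An unnamed cluster of deep cells led by Cldn5 that carries endothelial and pericyte genes (41 and 69 cells) stood at 149.2 and 68.2 CPM of Esm1. Its ratio of 0.457 (0.343 to 0.608) also passed the size rule, as for 4.08% of 8165 eligible genes there.

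Several other measures differed between the libraries in capillary-like cells. Their median mitochondrial share was 3.53% in control and 2.18% in haplodeficient cells, and the 17 dissociation stress genes summed to 14924 and 18172 CPM. Proximal tubule markers, a trace of free RNA, summed to 129.3 and 16.2 CPM, with 2 and 5 of 10 at 0. Pericyte or smooth muscle markers summed to 147.8 and 128.7 CPM, macrophage markers to 85.0 and 88.2 CPM, and the 10 endothelial markers to 11119 and 11791 CPM. Their part in the Esm1 difference was not tested. With free RNA subtracted the Esm1 ratio was 0.174, and without the cell with most Esm1 UMIs in each library it was 0.189. Gzmk, opposite Esm1, was detected there at 51.7 CPM (14 UMIs) and 5.67 CPM (7 UMIs). In endothelial-like cells 39 of the 51 with a Gzmk UMI also held Esm1. In T-cell-like cells Esm1 stood at 16.0 and 14.96 CPM (8 and 42 UMIs), and 20 of the 36 Esm1-positive cells held Gzmk, against 274 of all 1163 cells.

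**Figure D5:**
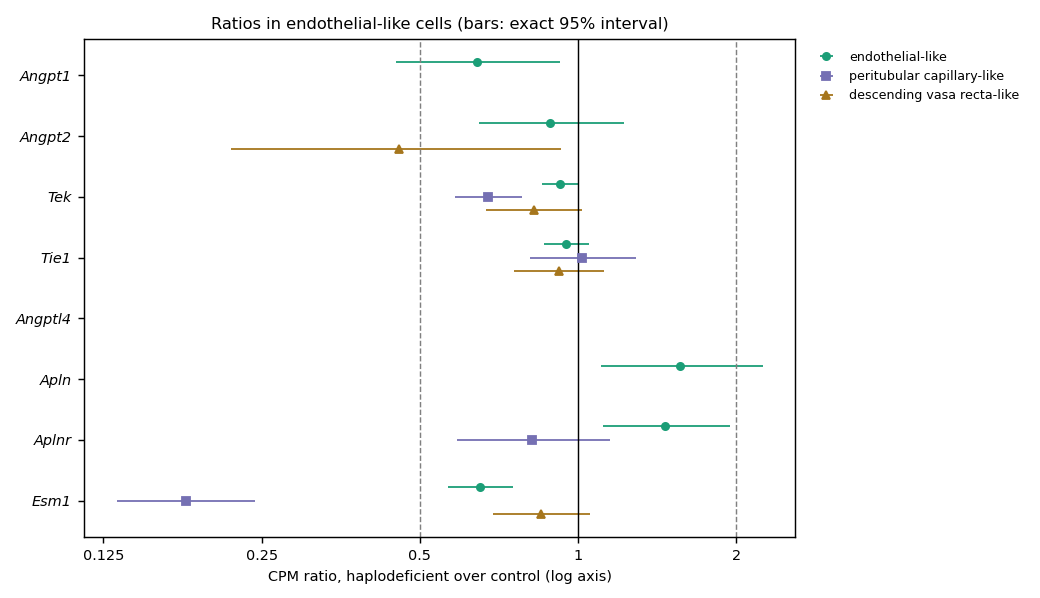
CPM ratio of the haplodeficient to the control library (horizontal log axis; bars are exact 95% intervals, dashed lines mark 2-fold) for genes eligible in endothelial-like, capillary-like and descending-vasa-recta-like cells. Capillary-like Esm1 (0.180) lies past the 2-fold line with its whole interval, and Tie1 lies close to 1 in all 3.

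Angptl4, the lipase inhibitor, was an epithelial and stromal gene here. Proximal-tubule-like cells stood at 85.5 CPM (82.6 to 88.4; 3415 UMIs) in control and 91.4 CPM (83.4 to 99.9; 478 UMIs) in haplodeficient cells, a ratio of 1.07 (0.969 to 1.18). The Gm42397-led cluster stood at 161.9 and 234.1 CPM, the Slc5a12-led cluster at 50.9 and 73.4 CPM and the Spp2-led cluster at 12.7 and 28.9 CPM, so each of these 3 stood higher in the haplodeficient library while the class as a whole had nearly the same level in both. The Kap-led cluster stood at 35.0 CPM in 651 control cells and held 4 UMIs in 23 haplodeficient cells. The Gm42397-led cluster was 883 of 3187 control but 62 of 453 haplodeficient proximal-tubule-like cells. Fibroblast-like cells stood at 107.8 CPM (62 UMIs) and 61.2 CPM (56 UMIs), a ratio of 0.568 (0.388 to 0.828).

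Injured-tubule-like cells (389 and 183), which express the injury genes Havcr1 and Krt20, stood at 91.3 CPM (84.1 to 99.1; 580 UMIs) and 39.8 CPM (33.2 to 47.4; 125 UMIs) of Angptl4. The ratio of 0.436 (0.357 to 0.530) passed the size rule, as for 2.8% of 8997 eligible genes, and was 0.559 with likely doublets kept and 0.543 with cells thinned. In these cells proximal tubule markers summed to 1967 and 1656 CPM (none of 10 at 0), and the median mitochondrial share was 5.88% and 3.59%; their part in the difference was not tested. Descending-thin-limb-like cells stood at 19.2 CPM (118 UMIs) and 9.23 CPM (82 UMIs), a ratio of 0.481 (0.358 to 0.643), which also passed. Free RNA would account for an estimated 23.7 of these control and 6.17 of these haplodeficient UMIs, and the rule was passed under 6 of 12 alternative settings. Angpt1 was also lower in injured-tubule-like cells, with 74 control and 6 haplodeficient UMIs, but its mean level was under the 10 CPM that the rule requires. Over the 13 other classes with at least 100 cells in each library, 4 of 13 eligible gene-by-class comparisons passed the rule, all lower in the haplodeficient library. These were Angpt2 and Angptl4 in descending-thin-limb-like, Angptl4 in injured-tubule-like and Angpt1 in pericyte-or-smooth-muscle-like cells, and 3.71% of all gene-by-class comparisons there passed.

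The partners of these genes were counted in endothelial-like cells from fixed lists that hold none of the 8. Over all 9144 eligible genes the log2 ratio had a median of 0.00, and 1.96% passed the size rule. Of 21 Tie signalling partners, 17 were eligible and 0 passed the size rule in either direction. Of these, 12 had an interval below and 1 an interval above a ratio of 1, and the median log2 ratio was -0.28. The dissociation stress list gave 12 of 17 below and 2 above in the same cells, so this count is not particular to Tie partners. The share of all eligible genes with such an interval was not counted. The 3 most abundant were Klf2, a flow-responsive transcription factor, at 1825 and 1581 CPM, Ptprb, the phosphatase VE-PTP that dephosphorylates Tie2, at 1286 and 1057 CPM, and the integrin gene Itgb1 at 414.1 and 513.3 CPM. Of 15 apelin signalling partners, 11 were eligible and 0 passed, with a median of -0.31; the most abundant were Klf2, the G-protein subunit gene Gnai2 at 950.2 and 1044 CPM and the transcription factor gene Mef2c at 416.6 and 420.5 CPM. In capillary-like cells the median over all 6835 eligible genes was 0.02, and 4.96% of them passed. Of the Tie partners 15 were eligible, with a median log2 ratio of -0.07, 1 interval below and 1 above a ratio of 1. The 1 that passed, the integrin gene Itgav, was lower (0.405, 0.229 to 0.737) and is named after its value was seen. There 11 apelin partners were eligible and 0 passed, with 6 ratios above and 5 below 1 and a median of 0.11, opposite in sign to that over all endothelial-like cells.

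Of 12 angiopoietin-like and lipase genes, 4 were eligible in endothelial-like cells and 1 passed, where 1.96% of all 9144 eligible genes did. Lpl, the lipoprotein lipase that Angptl4 inhibits, was higher, at 8.77 CPM (21 UMIs) in control and 22.5 CPM (119 UMIs) in haplodeficient cells, a ratio of 2.57 (1.61 to 4.30). Macrophage markers in these cells summed to 49.7 and 81.8 CPM and fibroblast markers to 29.6 and 46.6 CPM, control first. Proximal tubule markers, a trace of free RNA, went the other way, at 142.4 and 7.57 CPM. Their part in the Lpl difference was not tested. Of 9 VEGF genes all were eligible and 1 passed, beside the same 1.96% of all eligible genes. Vegfc, the lymphangiogenic ligand gene, was lower, at 238.4 CPM in control and 102.2 CPM in haplodeficient cells, with a ratio of 0.429 (0.381 to 0.483). It was among the 10 leading genes of the Stmn2-led endothelial-like cluster in the coarser clustering over all cells. That cluster held 55 of 362 control but 74 of 793 haplodeficient endothelial-like cells, and the part of these shares was not tested.

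Of 19 tip cell genes besides the members, 18 were eligible in endothelial-like cells and 0 passed, with a median log2 ratio of 0.15; the most abundant were Col4a1 at 580.3 and 892.3 CPM, Col4a2 at 356.5 and 554.0 CPM, both of the basement membrane, and Cd34 at 404.1 and 462.7 CPM. In capillary-like cells, where Esm1 was lower, 15 of these tip cell genes were eligible and 3 passed, where 4.96% of all eligible genes did. All 3 were lower: the Notch ligand gene Dll4, the basement membrane gene Nid2 and Igfbp3, also a fixed marker used to name capillary-like cells. They had ratios of 0.312 (0.212 to 0.464), 0.473 (0.268 to 0.863) and 0.481 (0.402 to 0.578), and were named after their values were seen. The other 12 did not pass, and the median log2 ratio there was -0.16 against 0.02 for all eligible genes. Of 16 HIF target genes 14 were eligible in endothelial-like cells and 0 passed, with a median of -0.21; Ldha stood at 271.4 and 277.8 CPM, Ndrg1 at 226.7 and 194.3 CPM and Ddit4 at 150.7 and 104.1 CPM. All 17 dissociation stress genes were eligible and 0 passed, with a median of -0.15; Jun stood at 3490 and 3920 CPM, Junb at 3259 and 3126 CPM and Fos at 3228 and 3046 CPM. In capillary-like cells none of the 10 HIF target, 17 stress and 5 VEGF genes eligible there passed, and their medians were -0.11, 0.22 and -0.21, so the stress genes differed in sign between the class and this subcluster.

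Across 31 sums of a class in a library (16 classes of at least 50 cells), the genes whose log2(CPM + 1) pattern was most like each member were listed as a description. Tie1 was most like Robo4, Rian and Myct1 (Pearson's r 0.974, 0.972 and 0.967), Aplnr like Lrrc3b, Ccm2l and Gm39822 (0.985, 0.982 and 0.981) and Tek like Fam181b, Lrrc3b and Gm3364 (0.942, 0.930 and 0.928). Apln was most like Slco1a4, Ssu2 and Smim9 (0.95 each), and Esm1 like Apol10b, 1810073O08Rik and 1700094M23Rik (0.95, 0.942 and 0.889). Angpt2 was most like Sfrp2, Lama4 and Atoh8 (0.868, 0.865 and 0.862), Angptl4 like Npas3, Sfxn1 and Syt12 (0.889, 0.888 and 0.884), and Angpt1 like Tbx2, Gstk1 and A4galt (0.782, 0.752 and 0.744). Among the members themselves the highest values were 0.943 for Apln with Aplnr and 0.939 for Aplnr with Tie1, and Angpt1 with Tek gave 0.195. Sums of a library share its depth and free RNA.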

How the data were processed

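Raw UMI counts per gene and barcode were deposited by the authors as 1 matrix per library, made with Cell Ranger 4 per the file headers, on mm10 per the submitters' processing notes; library chemistry was 10x 3′ v3.1 per the labels' protocols, which also mention cell hashing, not used here. Totals were 134190236 (control) and 114668145 (haplodeficient) UMIs. Barcodes with at least 500 UMIs, 200 genes and at most 50% mitochondrial UMIs were kept; 574 and 30 were over that limit, and 715 and 804 likely doublets (scanpy 1.11.5) were removed. Cells were clustered by Leiden (leidenalg 0.10.2) on 2000 variable genes without the members and lists. A cluster needed 3 markers of its class detected in 10% of cells at 2-fold; this naming rule was set after the data were seen. Summed UMIs gave CPM with exact Poisson intervals, ratios with exact conditional binomial intervals, and shares with Clopper-Pearson intervals, all at 95% (scipy 1.17.1). Free RNA was read from barcodes of 1 to 100 UMIs. The members and lists were chosen with earlier results of these data known. Genes named from a list were those past the size rule in endothelial-like cells or otherwise the 3 most abundant eligible ones; for each member the 3 genes most alike were named. The call rule was tested on simulated counts that hold counting error alone. That test does not cover UMIs gathered in single cells or differences between animals.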

Additional observations from a re-analysis of the deposited data

How the results depend on the processing

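No paired analysis was possible because each group has 1 library, and leaving out a replicate was not possible either. The Esm1 ratio in peritubular-capillary-like cells stayed past 2-fold in all 11 alternatives that gave a value, from 0.156 to 0.311, the latter with each cell thinned to 1000 UMIs; with at least 1000 UMIs per cell, or with the members allowed among the variable genes, no subcluster was named capillary-like. Angpt2 in descending-thin-limb-like cells stayed past it in all 12 (0.327 to 0.396). With each library clustered on its own, the Angpt2 ratio of pericyte-or-smooth-muscle-like cells was 0.362, past 2-fold, against 1.10; with the class taken from each cell's own markers it was 0.726.

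In endothelial-like cells the number of members past 2-fold was 1 with the same subcluster weights in both libraries (Esm1, 0.493), 1 with no CPM minimum (Angptl4) and 1 without the unnamed Magi2-led subcluster (Apln, 3.88), an alternative added after seeing the data. Also added then, leaving out the cell with most UMIs in each library gave Apln 2.97. With the same weights Angpt1 was 0.988, Tek 0.767 and Aplnr 0.910; with cells thinned Angpt1 was 3.10, from 2 and 13 positive cells, and Tek 0.825; with each library clustered on its own Tek was 1.04. In other classes 0 comparisons passed with cells thinned, which leaves few UMIs, 1 with a minimum of 50 CPM and 8 with none. Thinned to 500 UMIs, the shares of cells, control first, were 19.1% and 16.9% for Tek, 11.9% and 9.84% for Tie1 and 5.80% and 4.04% for Esm1 in endothelial-like cells, and 10.8% and 3.54% for Esm1 in capillary-like cells. Where no cause is named it was not tested. Depth limits what could be compared: Angptl4 in endothelial-like cells and Apln in capillary-like cells had too few UMIs for the size rule.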

Other observations

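The members were also read in barcodes outside the analysed cells, which belong to no comparison above. Among 574 control barcodes over the mitochondrial limit, Angpt1 stood at 21.2 CPM (51 UMIs) and Angptl4 at 16.6 CPM (40 UMIs), and the other 6 genes had at most 4 UMIs each. In barcodes of 1 to 100 UMIs, which hold mostly free RNA, Angptl4 stood at 59.1 CPM in control and 14.0 CPM in the haplodeficient library, and Angpt1 at 24.4 and 8.91 CPM. Tek and Tie1 went the other way there, at 6.76 and 17.6 CPM and at 4.56 and 17.5 CPM, while Aplnr had 8 and 7 UMIs, or 1.26 and 1.27 CPM.

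Several clusters that stayed unnamed held members. A cluster led by Psca (467 control and 571 haplodeficient cells) stood at 41.5 and 24.1 CPM of Angptl4, from 250 and 128 UMIs. A deep cluster led by Slc26a4 (284 and 226 cells) stood at 44.2 and 36.1 CPM of Angpt1, from 373 and 307 UMIs. A cluster led by Tnc (82 and 266 cells) held 20 and 40 Angpt1 UMIs, or 23.3 and 11.5 CPM. In it Apln had 0 UMIs in control and 18 in the haplodeficient library, all of them in 1 cell.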
